A study of Stenocereus queretaroensis with 6 samples.

Results

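The flavonoid ring pathway was examined in suspension cells of *Stenocereus queretaroensis*, a cactus of columnar habit, kept in liquid medium with 3% or 8% sucrose. Its members are the 40 assembled transcript clusters, of 170970 in the assembly, whose best Swiss-Prot protein hit is described as an enzyme that builds or modifies the flavonoid ring system. Swiss-Prot is a curated protein database, and the choice used the wording of the description and no measured level. The 40 clusters fall on 22 distinct Swiss-Prot proteins, so several clusters can be parts, alleles or copies of one gene. By step, 7 clusters resemble chalcone synthase, 5 chalcone isomerase, 4 a chalcone isomerase-like protein, 5 flavanone 3-dioxygenase, 5 flavonoid 3'- or 3',5'-hydroxylases and 4 flavonol synthase. The late steps hold 3 clusters that resemble dihydroflavonol reductase, 1 leucoanthocyanidin reductase and 6 anthocyanidin reductase, and none resembles leucoanthocyanidin dioxygenase.

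RNA sequencing of poly(A) RNA gave 6 libraries, 3 from cells on MS medium, the usual mineral base of plant tissue culture, with 3% sucrose and 3 from cells on MS medium with 8% sucrose. No genotype, culture age or other treatment is given in the labels, and the titles carry a letter, Y at 3% and R at 8% sucrose, whose meaning the labels do not give. Whether replicates are separate cultures is not stated either, and p-values therefore reflect only the spread among these 6 libraries, which may be technical.

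Flavonoids are built from a phenylpropanoid unit, coumaroyl-CoA, and malonyl-CoA, which chalcone synthase joins into a chalcone. Chalcone isomerase closes the ring, flavanone 3-dioxygenase makes dihydroflavonols, and flavonol synthase turns these into flavonols such as quercetin and kaempferol. In many plants dihydroflavonol reductase and leucoanthocyanidin dioxygenase lead on to the anthocyanins and, with the reductases, to condensed tannins, whereas cacti colour their tissues with betalains, and the late steps are therefore described apart.

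Libraries held 35476032 to 41147265 expected counts. Across all clusters the first principal component, with 74.1% of the variance, separated the media, and the second, with 7.64%, set replicate 1 at 3% sucrose apart from the other 5 libraries. After clusters with too few counts were removed, 85038 were tested, and their median log2 fold change of 8% over 3% sucrose was 0.19. Levels are given as CPM (counts on TMM-scaled library sizes, brought to one total) in the order of replicates 1, 2 and 3, and levels of different clusters are compared as FPKM, which also corrects for cluster length. A fold change is the log2 ratio of 8% over 3% sucrose with its SE, and a cluster is called higher or lower at an adjusted p under 0.05 in edgeR's quasi-likelihood test. This SE was back-calculated as the absolute log2 fold change divided by the square root of the test's F statistic. It is therefore no separate measure of precision, above all for clusters near 0 in a medium. In such bulk samples fewer cells of a type and less RNA per cell cannot be told apart.

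At 8% sucrose most measured transcripts of the steps from chalcone synthase to flavonol synthase were higher. Of the 40 clusters 27 passed the filter on low counts and 13 did not. Of the 27 tested, 21 were higher at 8% sucrose, 5 were lower and 1 did not pass the test. Of all tested clusters 29.1% were called higher and 25.6% lower. The 3 libraries at 8% sucrose all lay above the 3 at 3% sucrose for 21 of the 27 clusters and all below for 5. Of all tested clusters 36.7% had no overlap with 8% above 3% sucrose and 30.9% with 8% below. The median log2 fold change of the 27 was 3.49, beside 0.19 for all tested clusters. Rare clusters near 0 at 3% sucrose, such as Cluster-2051.73674 and Cluster-2051.86560, passed the filter only through the 8% libraries, which raises that count and median. Of the 17 clusters with a mean of at least 100 counts, 13 were higher and 4 lower, with a median of 3.02. Cluster-2051.73675 and Cluster-2051.78362, also near 0 at 3% sucrose, are still among these. Summed over all 40 clusters the level was 873, 876 and 853 CPM at 3% sucrose and 5521, 5593 and 5421 CPM at 8% sucrose, a ratio of 6.36.

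**Figure D1:**
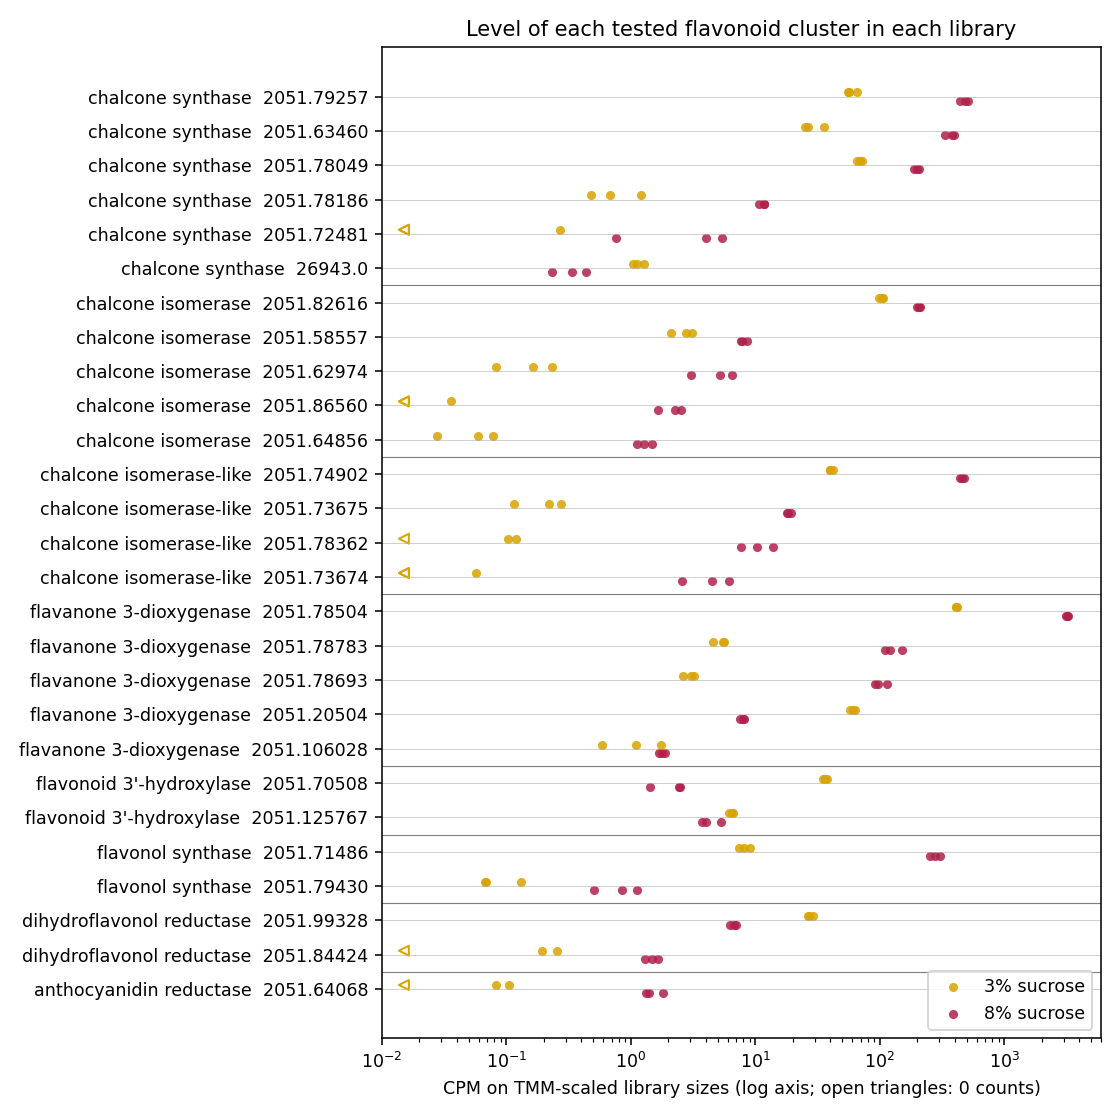
Level of the 27 tested clusters in each of the 6 libraries, as CPM on a logarithmic axis, ordered by pathway step. Each point is 1 library, yellow for 3% and red for 8% sucrose, and open triangles are libraries with 0 counts. The 8% points lie to the right of the 3% points in 21 clusters and to the left in 5.

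Chalcone synthase is the entry enzyme of the pathway and was represented among the members by 3 abundant clusters, all of which were higher at 8% sucrose. Cluster-2051.79257 was at 55.4, 65.5 and 56.9 CPM at 3% sucrose and at 514.5, 484 and 440 CPM at 8% sucrose. The media did not overlap, with a log2 fold change of 3.02 ± 0.09 (SE, n = 3 per medium, edgeR adjusted p = 1.61e-06). Cluster-2051.63460 was at 35.9, 26.7 and 24.9 CPM and at 397, 379 and 337 CPM. Its log2 fold change was 3.67 ± 0.16 (edgeR adjusted p = 5.26e-06), and replicate 1 was the highest library of both media. Cluster-2051.78049 was at 69.4, 72.4 and 65.1 CPM and at 199.6, 206 and 189 CPM. This cluster rose least of the 3, by 1.52 ± 0.06 on the log2 scale (edgeR adjusted p = 4.56e-06).

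These 3 clusters share their best hit, a chalcone synthase of the carnation relative *Dianthus monspessulanus*, with the rarer Cluster-2051.72481. The division of reads among the 4 differed between the media. Cluster-2051.78049 held 43.8% ± 0.585 of their summed CPM at 3% sucrose (SD, n = 3) and 18.9% ± 0.843 at 8% sucrose. Cluster-2051.63460 went from 18.5% ± 3.35 to 35.2% ± 0.458, and Cluster-2051.79257 from 37.6% ± 2.78 to 45.6% ± 0.509. For each of these 3 the 3 libraries of a medium did not overlap with those of the other. Per length, Cluster-2051.78049 was the highest chalcone synthase cluster at 3% sucrose, at 44.0 ± 1.77 FPKM, and the third at 8% sucrose, at 141 ± 4.05 FPKM. At 8% sucrose Cluster-2051.79257 led with 306 ± 21.2 FPKM, followed by Cluster-2051.63460 with 256 ± 18.4 FPKM.

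Among the less abundant chalcone synthase clusters, Cluster-2051.78186 was at 1.21, 0.480 and 0.677 CPM at 3% sucrose and at 10.7, 11.8 and 11.8 CPM at 8% sucrose, a log2 fold change of 3.86 ± 0.34 (edgeR adjusted p = 0.000126). Cluster-2051.72481 was called higher too, with an uneven 4.003, 0.766 and 5.42 CPM at 8% sucrose. Cluster-26943.0 went the other way and is the only 1 of the 7 chalcone synthase clusters called lower. It was at 1.27, 1.05 and 1.12 CPM at 3% sucrose and at 0.233, 0.437 and 0.336 CPM at 8% sucrose, a log2 fold change of -1.76 ± 0.40 (edgeR adjusted p = 0.00955). Its best Swiss-Prot hit is chalcone synthase 2 of common rue and its best hit in NR, a larger protein collection, is a cucumber protein. The remaining cluster, Cluster-25880.0, with the same Swiss-Prot hit, was removed by the filter. Over all 7 clusters chalcone synthase summed to 159.5 ± 9.46 CPM at 3% sucrose and 1064 ± 73.1 CPM at 8% sucrose (SD, n = 3), a ratio of 6.67.

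Chalcone isomerase, which closes the third ring, had the smallest ratio of the summed steps that were higher at 8% sucrose. Its abundant Cluster-2051.82616 was at 103.8, 106 and 99.2 CPM at 3% sucrose and at 208, 209 and 199.6 CPM at 8% sucrose. The log2 fold change was 1.00 ± 0.05 (edgeR adjusted p = 1.04e-05), with no overlap between the media. All 5 chalcone isomerase clusters were called higher. Cluster-2051.58557 was at 3.10, 2.12 and 2.79 CPM and at 7.63, 8.60 and 7.78 CPM, a log2 fold change of 1.58 ± 0.19 (edgeR adjusted p = 0.000575). Cluster-2051.62974 was at 0.163, 0.232 and 0.0831 CPM and at 3.05, 5.23 and 6.53 CPM, a log2 fold change of 4.88 ± 0.49 (edgeR adjusted p = 0.000245). The other 2, Cluster-2051.86560 and Cluster-2051.64856, rose by 7.41 ± 0.78 and 4.46 ± 0.51 on the log2 scale from means of 0.0121 and 0.0551 CPM, which are below the level of 3 counts in any library at 3% sucrose (0.0784 to 0.0883 CPM). Cluster-2051.62974 starts its reading frame at the same base of its transcript, 79, as Cluster-2051.82616, and it took 0.153% ± 0.0673 of the reads of the pair at 3% sucrose and 2.35% ± 0.864 at 8% sucrose. In the same way Cluster-2051.86560 shares the frame from base 834 to 1085 with Cluster-2051.58557. The step summed to 106.0 ± 3.46 CPM and 222 ± 4.64 CPM, a ratio of 2.09.

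The chalcone isomerase-like protein has the isomerase fold, and in *Arabidopsis* it is known to raise flavonoid output without being the main isomerase. All 4 of its clusters have the same *Arabidopsis* Swiss-Prot hit, an NR hit from carnation named an enhancer of flavonoid production, and higher levels at 8% sucrose. Cluster-2051.74902 was at 39.9, 39.7 and 42.4 CPM at 3% sucrose and at 473, 459 and 442 CPM at 8% sucrose. Its log2 fold change was 3.49 ± 0.06 (edgeR adjusted p = 3.54e-07), and its level per length went from 40.2 ± 2.18 to 502 ± 13.3 FPKM. At 8% sucrose that is above every chalcone isomerase and chalcone synthase cluster, whereas at 3% sucrose chalcone isomerase Cluster-2051.82616, at 151 ± 3.72 FPKM, was higher. Cluster-2051.73675 was at 0.219, 0.273 and 0.116 CPM and at 17.9, 18.4 and 19.3 CPM, a log2 fold change of 6.56 ± 0.25 (edgeR adjusted p = 3.38e-06). Cluster-2051.78362 was at 0.102, 0.118 and 0 CPM and at 7.73, 10.3 and 13.9 CPM. Cluster-2051.73674 had counts in 1 library at 3% sucrose and was at 6.15, 4.49 and 2.57 CPM at 8% sucrose. Both were called higher, with log2 fold changes of 7.12 ± 0.61 and 7.66 ± 0.84, from means of 0.0736 and 0.0189 CPM that are also below the level of 3 counts in any library at 3% sucrose. Of the reads of this hit Cluster-2051.74902 held 99.3% ± 0.292 at 3% sucrose and 93.2% ± 0.609 at 8% sucrose.

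**Figure D2:**
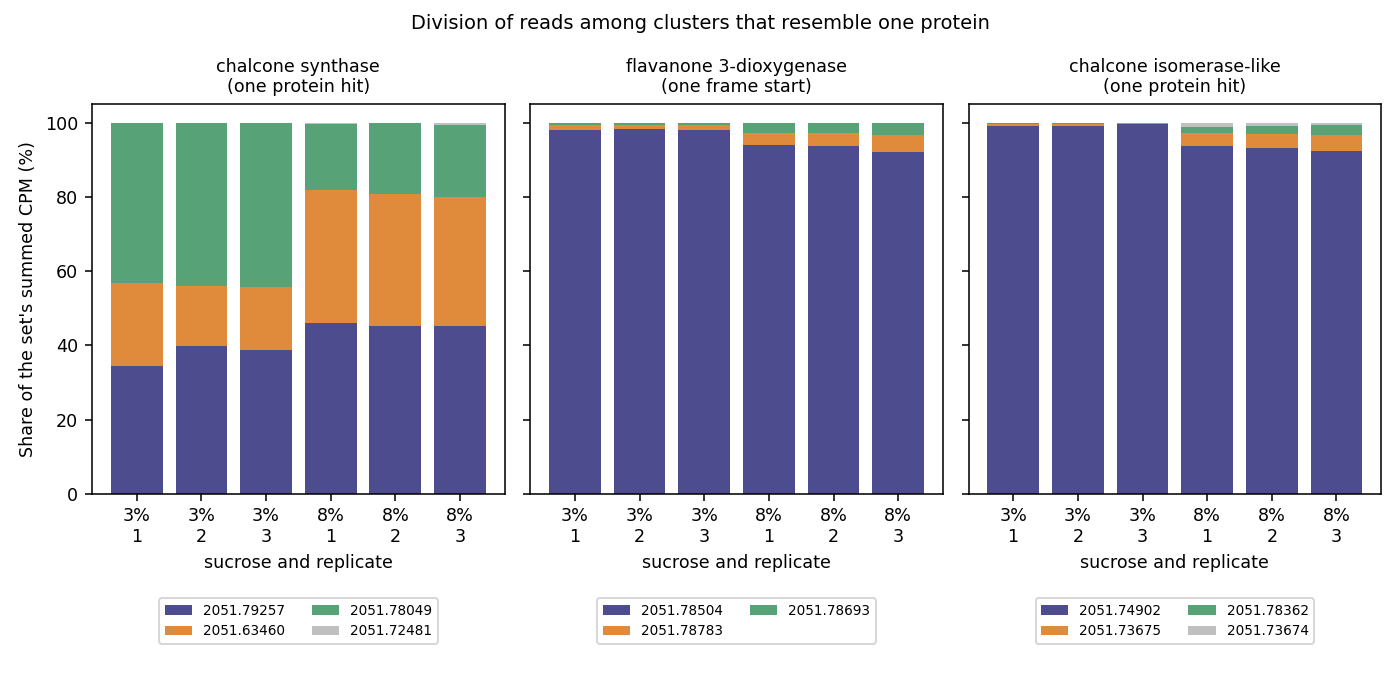
Division of reads, in percent of the summed CPM, among clusters with the same chalcone synthase hit, with the same flavanone 3-dioxygenase frame start and with the same chalcone isomerase-like hit. Each bar is 1 library, and colours are clusters. Cluster-2051.78049 falls from 43.8% to 18.9% of the chalcone synthase reads, and the main cluster of each other set goes from 98.1% to 93.3% and from 99.3% to 93.2%.

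Flavanone 3-dioxygenase, an oxygenase that uses 2-oxoglutarate and turns flavanones into dihydroflavonols, held the most abundant member and also a member that moved against the rest. Cluster-2051.78504 was at 414, 407 and 413 CPM at 3% sucrose and at 3187, 3270 and 3144 CPM at 8% sucrose. Its log2 fold change was 2.96 ± 0.04 (edgeR adjusted p = 2.66e-07). Its level per length went from 254 ± 5.26 to 2199 ± 15.4 FPKM, and its rank by FPKM among all 170970 clusters from 497 to 18. Cluster-2051.78783 was at 5.48, 4.55 and 5.56 CPM and at 109.9, 121.7 and 150.7 CPM, a log2 fold change of 4.62 ± 0.16 (edgeR adjusted p = 2.23e-06). Cluster-2051.78693 was at 3.20, 3.05 and 2.62 CPM and at 92.0, 97.4 and 114.7 CPM, a log2 fold change of 5.10 ± 0.13 (edgeR adjusted p = 9.48e-07). In all 3 clusters a reading frame starts at base 221, which in Cluster-2051.78783 is 1 of 2 separate frame parts, although their best hits are proteins of parsley, *Arabidopsis* and apple. Of the reads of the 3, Cluster-2051.78504 held 98.1% ± 0.110 at 3% sucrose and 93.3% ± 0.976 at 8% sucrose.

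Cluster-2051.20504 is the flavanone 3-dioxygenase cluster with the highest alignment score, 1547 against the carnation enzyme, where Cluster-2051.78504 scores 1031 against the parsley enzyme. Its NR hit, from cotton, also bears the name flavanone 3-hydroxylase. It was at 60.4, 62.7 and 57.4 CPM at 3% sucrose and at 7.97, 7.49 and 8.17 CPM at 8% sucrose. The media did not overlap and the log2 fold change was -2.93 ± 0.07 (edgeR adjusted p = 9.22e-07), the opposite direction to the 3 clusters above. Per length it was at 47.9 ± 1.53 FPKM at 3% sucrose, below Cluster-2051.78504 in that medium too, and at 6.98 ± 0.408 FPKM at 8% sucrose. Cluster-2051.106028, whose NR hit is an oxygenase of this superfamily with no flavonoid name, was at 0.588, 1.10 and 1.74 CPM and at 1.78, 1.69 and 1.89 CPM, overlapped between the media and did not pass the test (log2 fold change 0.65 ± 0.42, edgeR adjusted p = 0.233). The step summed to 481 ± 2.65 CPM at 3% sucrose and 3439 ± 52.6 CPM at 8% sucrose, a ratio of 7.15.

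The flavonoid 3'- and 3',5'-hydroxylases are cytochrome P450 enzymes that add hydroxyl groups to the side ring and so set apart quercetin-type from kaempferol-type flavonols. Of the 5 clusters 2 were lower at 8% sucrose, none was called higher and 3 were too rare to test. Cluster-2051.70508 was at 34.7, 37.4 and 36.2 CPM at 3% sucrose and at 2.44, 2.47 and 1.42 CPM at 8% sucrose, a log2 fold change of -4.09 ± 0.21 (edgeR adjusted p = 1.21e-05). Cluster-2051.125767 was at 6.502, 6.60 and 6.12 CPM and at 3.72, 3.98 and 5.25 CPM, a log2 fold change of -0.57 ± 0.18 (edgeR adjusted p = 0.0331). The call on Cluster-2051.125767 was lost without replicate 1 or 2 of either medium, where the edgeR adjusted p was 0.0631 and 0.0708 for the libraries at 3% sucrose and 0.0883 and 0.0991 for those at 8% sucrose. The NR hit of both clusters is a 7-ethoxycoumarin O-deethylase-like P450 of *Prunus mume* and not a flavonoid hydroxylase.

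The cluster of this step with the closest match, Cluster-8554.0, has a Swiss-Prot alignment score of 1478 and an NR hit named flavonoid 3'-monooxygenase. It was too rare to test, at 0.364 ± 0.138 CPM at 3% sucrose and 0.0431 ± 0.0747 CPM at 8% sucrose. Cluster-2051.6596 and Cluster-486.0 had no count at 8% sucrose, so that against the level of 3 counts in each library they were at least 4.40-fold and at least 1.98-fold lower, by counting error only. The 5 clusters summed to 43.4 ± 1.38 CPM at 3% sucrose and 6.47 ± 0.192 CPM at 8% sucrose, 6.70-fold lower. Cluster-2051.70508, which NR does not name as a flavonoid hydroxylase, held 83.2% of the sum at 3% sucrose.

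Flavonol synthase, a further 2-oxoglutarate oxygenase and the last step to flavonols, had the largest ratio of the summed steps. Cluster-2051.71486 was at 8.08, 7.45 and 9.12 CPM at 3% sucrose and at 252.5, 276 and 304 CPM at 8% sucrose. Its log2 fold change was 5.08 ± 0.12 (edgeR adjusted p = 7.12e-07), and its level per length went from 7.74 ± 0.913 to 291 ± 30.6 FPKM. Its NR hit is a flavonol synthase of tartary buckwheat. The FPKM rank among all clusters went from 14817 to 412. At 3% sucrose it was thus below the main clusters of all earlier steps, and at 8% sucrose it did not differ from chalcone synthase Cluster-2051.79257 (306 ± 21.2 FPKM) beyond the spread between libraries. Cluster-2051.79430 was at 0.0688, 0.131 and 0.0675 CPM and at 0.856, 0.509 and 1.12 CPM, a log2 fold change of 3.29 ± 0.58 (edgeR adjusted p = 0.00319). The other 2 clusters were removed by the filter, with means of 0.0492 to 0.231 CPM. The step summed to 8.62 ± 0.893 CPM and 279 ± 26.1 CPM, a ratio of 32.3. Summed as FPKM it went from 17.4 ± 8.48 to 300.4 ± 30.9, a log2 ratio of 4.11 where that of the CPM sum was 5.01, and the short Cluster-2051.116559, of 280 bp, held 9.32 ± 8.48 FPKM of the sum at 3% sucrose.

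**Figure D3:**
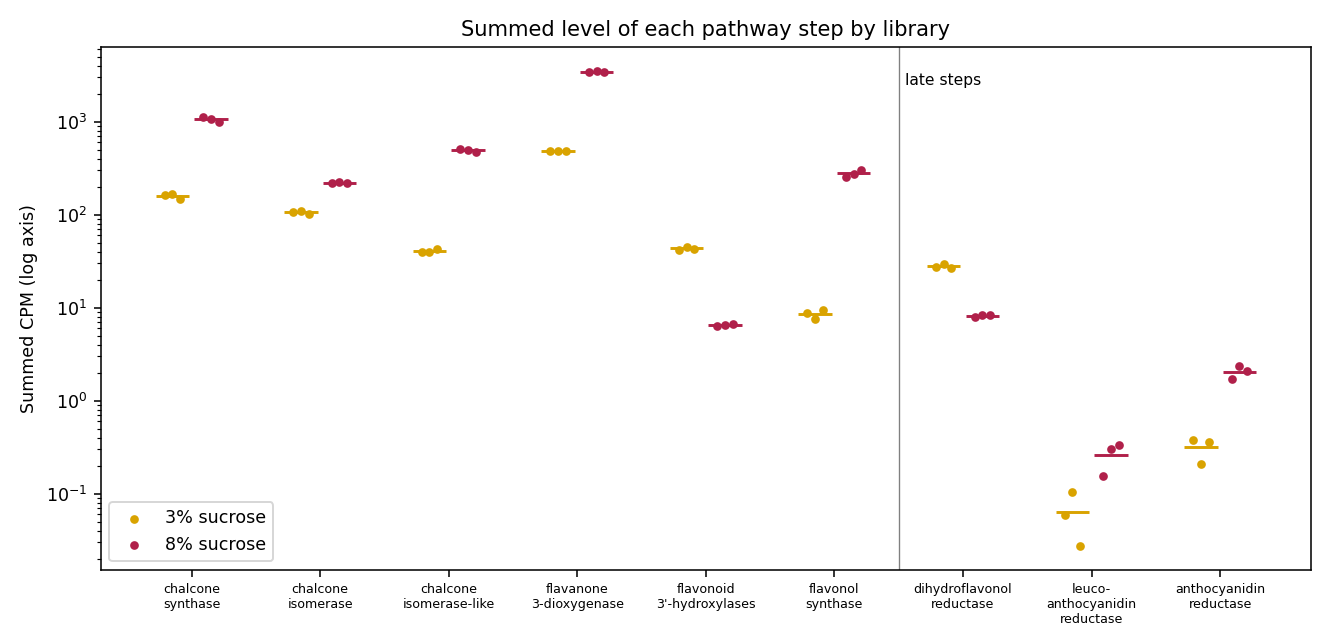
Summed CPM of each pathway step in each library, on a logarithmic axis, with the late steps to the right of the vertical line. Points are libraries and horizontal bars are the means of 3 libraries. Flavonol synthase has the widest gap, from a mean of 8.62 to 279 CPM, while the hydroxylases and the dihydroflavonol reductase step are lower at 8% sucrose. Of the hydroxylase sum at 3% sucrose, 83.2% is Cluster-2051.70508, whose NR hit is not a flavonoid hydroxylase. Without Cluster-2051.99328 the dihydroflavonol reductase step is higher, with a log2 ratio of 2.60. That rise is in Cluster-2051.84424 (means of 0.150 CPM at 3% and 1.48 CPM at 8% sucrose), which has the same Swiss-Prot hit, NR name and KEGG term. Cluster-2051.83496, with the gerbera hit, is at 0.116 and 0.128 CPM.

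For every step sum the 3 libraries of a medium lay wholly on one side of those of the other, and each exact two-sided permutation test gave p = 0.1, the smallest p that 3 libraries against 3 allow. In the steps to flavonols 24 of 30 clusters were tested, of which 19 were higher, 4 were lower and 1 did not pass, with a median log2 fold change of 3.58. Among all tested clusters 29.1% were called higher and 25.6% lower.

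**Figure D4:**
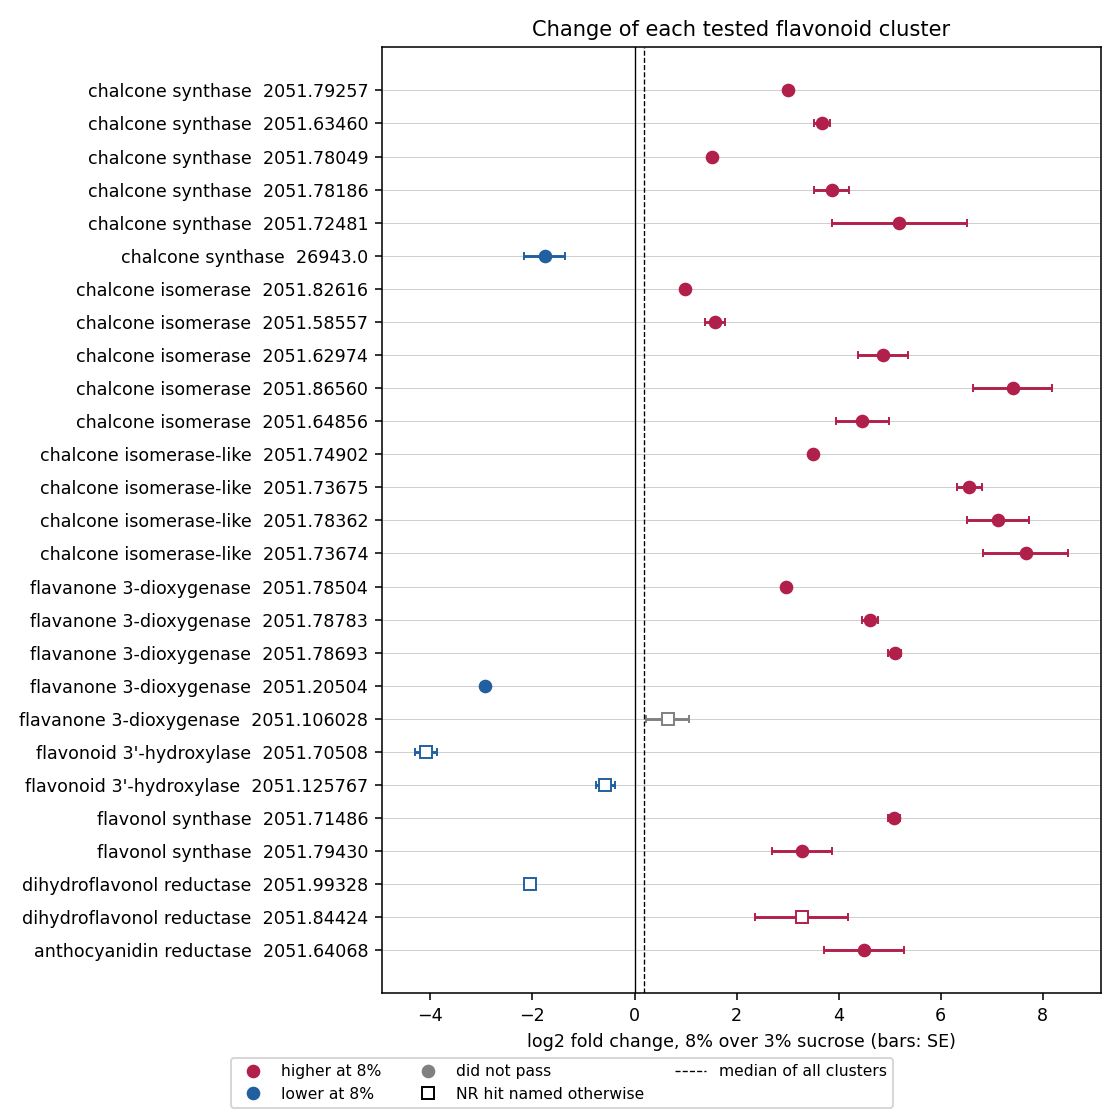
Log2 fold change of 8% over 3% sucrose for the 27 tested clusters, with bars for the SE. Red points are clusters called higher, blue ones lower and the grey one did not pass, open squares are clusters whose NR hit bears another name, and the dashed line is the median of all 85038 tested clusters, 0.19. The chalcone isomerase-like clusters reach 7.66, in a cluster whose mean at 3% sucrose is below the level of 3 counts. Cluster-2051.70508, a flavonoid hydroxylase by its Swiss-Prot hit but not by its NR hit, lies lowest, at -4.09.

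The late steps were rare or doubtful in name. Of their 10 clusters 3 passed the filter, of which 2 were higher and 1 was lower. Dihydroflavonol reductase, the branch enzyme towards leucoanthocyanidins, was represented by a single abundant cluster. Cluster-2051.99328 was at 26.8, 29.2 and 26.5 CPM at 3% sucrose and at 6.24, 6.70 and 6.94 CPM at 8% sucrose, a log2 fold change of -2.05 ± 0.09 (edgeR adjusted p = 6.08e-06). Its Swiss-Prot hit is a putative reductase of the cyanobacterium *Synechocystis*, its NR hit is a sterol-4-alpha-carboxylate 3-dehydrogenase, and KEGG, a pathway database, places it at farnesol dehydrogenase. Cluster-2051.84424, with the same 2 hits, was at 0.194, 0 and 0.255 CPM and at 1.66, 1.49 and 1.30 CPM, a log2 fold change of 3.27 ± 0.92 (edgeR adjusted p = 0.0214). The call on Cluster-2051.84424 was lost without any 1 library at 8% sucrose, with adjusted p-values of 0.0594, 0.0608 and 0.0516 for replicates 1, 2 and 3. Cluster-2051.83496, with a hit to the gerbera enzyme, was at 0.116 ± 0.0834 and 0.128 ± 0.0353 CPM and was not tested.

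Leucoanthocyanidin dioxygenase, also called anthocyanidin synthase, was the description of no Swiss-Prot or NR hit of the clusters analysed here, and 0 clusters held its KEGG term. KEGG's dihydroflavonol reductase term was also held by 0 clusters. Leucoanthocyanidin reductase, which makes catechin-type flavanols, had 1 cluster, Cluster-23483.0, at 0.0588, 0.105 and 0.0274 CPM at 3% sucrose and at 0.155, 0.301 and 0.336 CPM at 8% sucrose. It was too rare to test. Anthocyanidin reductase, which makes epicatechin-type flavanols, had 6 clusters, of which Cluster-2051.64068 was tested. That cluster was at 0, 0.105 and 0.0823 CPM and at 1.40, 1.80 and 1.31 CPM, a log2 fold change of 4.50 ± 0.79 (edgeR adjusted p = 0.003), on a weak protein match (E-value 1.7e-07, the number of hits this good expected by chance). The other 5 were too rare to test. Of these Cluster-4928.1 had no count at 3% sucrose and was at 0.337, 0 and 0.569 CPM at 8% sucrose, so the media overlapped at 0. Its Swiss-Prot hit, a putative enzyme of ginkgo, is shared by Cluster-11785.0 and Cluster-4928.0, and NR names all 3 for dihydroflavonol reductase. Cluster-2051.54343 had counts in 1 library only, replicate 3 at 8% sucrose, at 0.162 CPM. All late steps together summed to 28.2 ± 1.28 CPM at 3% sucrose and 10.6 ± 0.585 CPM at 8% sucrose, 2.67-fold lower, beside 839 ± 11.4 and 5501 ± 86.3 CPM for the steps to flavonols. That fall rests on Cluster-2051.99328, which NR and KEGG do not name as a flavonoid enzyme. Without it the late steps summed to 0.645 ± 0.249 and 3.93 ± 0.336 CPM, higher at 8% sucrose. At 8% sucrose most of this remainder is Cluster-2051.84424 and Cluster-2051.64068. The former has the same NR name and KEGG term as the cluster left out, and the latter rests on the weak match above. The rise of the remainder is therefore as doubtful in name as the fall.

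The description rule does not use the NR hit or the strength of the match. The NR hit named the same step for 27 of the 40 clusters, 22 of which were tested. Of these 22 clusters 20 were higher and 2 were lower (Cluster-26943.0 and Cluster-2051.20504), with a median log2 fold change of 4.16. They include clusters near 0 at 3% sucrose, such as Cluster-2051.73674, that passed the filter only through the 8% libraries. Beside these and the following counts, 29.1% of all tested clusters were called higher and 25.6% lower. Of the 5 tested clusters whose NR hit bears another name, 1 was higher, 3 were lower and 1 did not pass, with a median of -0.57. With a Swiss-Prot E-value of at most 1e-50, 15 of 21 clusters were tested, 11 were higher and 4 were lower, and with a weaker match 12 of 19 were tested, 10 were higher, 1 was lower and 1 did not pass. Of the 40 NR hits 23 are from beet, *Beta vulgaris*, and 4 from carnation, both of the same plant order as cacti.

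**Figure D5:**
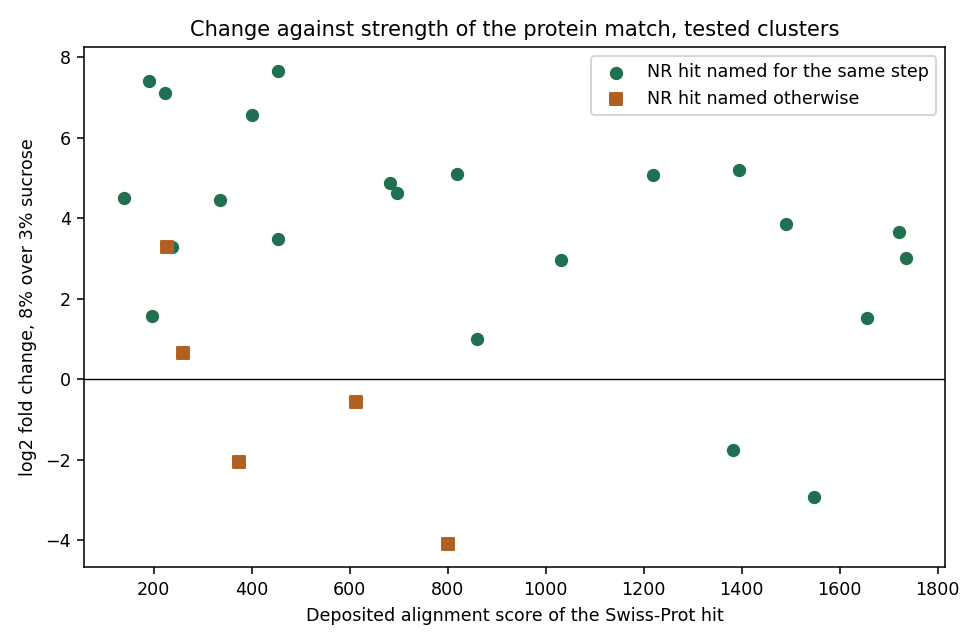
Log2 fold change of 8% over 3% sucrose of each tested cluster against the deposited alignment score of its Swiss-Prot hit. Green circles have an NR hit named for the same step, and brown squares an NR hit with another name. Of the 22 circles 20 lie above 0, and the 2 below have scores of 1381 and 1547.

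Counts were also summed over every cluster of the table with the same Swiss-Prot protein, so that reads divided between clusters count once. Of the 22 proteins 16 were tested, of which 10 were higher, 5 were lower and 1 did not pass, where 29.9% of all tested proteins were higher and 50.1% lower. Over all tested proteins the median log2 fold change was -0.32. With TMM factors estimated over the proteins that median was 0.03, and 39.95% were higher and 39.7% lower. The carnation-type flavanone 3-dioxygenase, Q05964, fell by 2.66 on the log2 scale in these sums and the parsley-type, Q7XZQ7, rose by 2.96. The chalcone synthase protein Q9LKP7 rose by 2.74, the chalcone isomerase-like protein Q8VZW3 by 3.59 and the flavonol synthase protein Q9M547 by 5.07. The authors' deposited table, which calls 14.8% of all clusters higher and 13.8% lower, calls higher all 21 clusters called higher here. It calls lower 4 of the 5 called lower here, all but Cluster-2051.125767. Among the clusters not tested here it calls 3 lower, the hydroxylase-like Cluster-8554.0, Cluster-2051.6596 and Cluster-486.0. It calls 1 of them higher, Cluster-4928.1, and does not call the other 9.

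The steps that feed the ring pathway moved in different directions. In a list for the phenylpropanoid entry, which turns phenylalanine into coumaroyl-CoA, 35 of 44 clusters were tested. Of these 21 were higher, 6 were lower and 8 did not pass, with a median log2 fold change of 2.11. The shares over all tested clusters were 29.1% higher and 25.6% lower. The list was drawn by description and also holds clusters described as 4-coumarate--CoA ligase-like 1, 5, 6, 7 and 9. Whether these make coumaroyl-CoA was not tested. Of 8 tested clusters of 4-coumarate--CoA ligase 2, 6 were higher and 0 lower, and the 1 tested cluster described as 4-coumarate--CoA ligase was lower. 4-Coumarate--CoA ligase 2, which makes the coumaroyl-CoA starter, was at 5.37, 6.64 and 6.56 CPM at 3% sucrose and at 325, 280 and 243 CPM at 8% sucrose in Cluster-2051.73438, a log2 fold change of 5.51 ± 0.15 (edgeR adjusted p = 1.15e-06). Phenylalanine ammonia-lyase, the entry enzyme, summed to 155 ± 11.3 CPM at 3% sucrose and 595 ± 70.9 CPM at 8% sucrose, with 3 of its 6 tested clusters higher and none lower. Of the 6 tested clusters of trans-cinnamate 4-monooxygenase, the P450 of the middle step, 3 were higher and 3 were lower, and the enzyme summed to 15.6 ± 0.774 CPM at 3% sucrose and 9.15 ± 0.900 CPM at 8% sucrose. Cluster-2051.13333 rose by 6.35 ± 0.64 on the log2 scale (edgeR adjusted p = 0.000249), to 4.21, 5.01 and 5.16 CPM at 8% sucrose. Cluster-2051.12343, the one that fell with the smallest adjusted p, was at 10.5, 9.15 and 10.1 CPM and at 1.92, 1.67 and 1.55 CPM, a log2 fold change of -2.53 ± 0.16 (edgeR adjusted p = 2.67e-05).

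Malonyl-CoA, the extender that chalcone synthase adds, comes from acetyl-CoA carboxylase in the cytosol. The list drawn by description holds 10 clusters of acetyl-CoA carboxylase 1 and 2 of acetyl-CoA carboxylase 2. Where their products act was not tested. All 8 clusters that passed the filter are of acetyl-CoA carboxylase 1. None of the 8 was higher, 6 were lower and 2 did not pass, with a median log2 fold change of -1.30. The shares over all tested clusters were 29.1% higher and 25.6% lower. Cluster-2051.86753, acetyl-CoA carboxylase 1, was at 110.1, 113.5 and 101.6 CPM at 3% sucrose and at 46.0, 44.5 and 40.6 CPM at 8% sucrose, a log2 fold change of -1.31 ± 0.07 (edgeR adjusted p = 1.64e-05). The list summed to 380 ± 47.2 CPM at 3% sucrose and 142 ± 9.58 CPM at 8% sucrose.

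Of 18 clusters whose Swiss-Prot hit is described as attaching sugars to flavonoids or anthocyanidins, 11 were tested, of which 4 were higher and 7 were lower. The shares over all tested clusters were 29.1% higher and 25.6% lower. Cluster-2051.79181, with a Swiss-Prot hit to a putative UDP-glucose flavonoid 3-O-glucosyltransferase 3, made up most of the list's 947 ± 24.2 CPM at 3% sucrose. In NR the cluster is named only a glucosyltransferase. It was at 943, 930 and 898 CPM at 3% sucrose and at 1454, 1523 and 1525 CPM at 8% sucrose, a log2 fold change of 0.70 ± 0.04 (edgeR adjusted p = 1.98e-05). Cluster-2051.6624, resembling enzyme 7 of that family, fell by 4.51 ± 0.29 on the log2 scale (edgeR adjusted p = 2.99e-05). NR names it a scopoletin glucosyltransferase-like protein, and whether either cluster acts on flavonoids was not tested. Of the acyl- and sulfotransferases 1 of 2 clusters was tested and it did not pass.

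The regulators found are 18 clusters resembling MYB, bHLH and WD-repeat factors, and none resembles a transporter. Of these 11 were tested, of which 3 were higher, 3 were lower and 5 did not pass. These counts are near the shares over all tested clusters, 29.1% higher and 25.6% lower. The WD-repeat protein TRANSPARENT TESTA GLABRA 1, a partner of MYB and bHLH factors in the flavonoid regulatory complex of *Arabidopsis*, was at 6.59, 6.77 and 6.999 CPM at 3% sucrose and at 18.5, 20.1 and 17.3 CPM at 8% sucrose in Cluster-2051.65137, a log2 fold change of 1.46 ± 0.10 (edgeR adjusted p = 4.36e-05). The MYB factor in Cluster-23103.0, resembling transcription repressor MYB5, was at 3.02, 3.63 and 3.08 CPM and at 0.0932, 0.273 and 0.0972 CPM, a log2 fold change of -4.32 ± 0.46 (edgeR adjusted p = 0.000317). Clusters resembling the bHLH factor GLABRA 3 summed to 3.59 ± 0.349 CPM at 3% sucrose and 0.194 ± 0.0787 CPM at 8% sucrose, with both tested clusters lower. Those resembling the bHLH factor EGL1 summed to 10.1 ± 1.38 and 13.1 ± 1.92 CPM, with 2 of 4 tested clusters higher and 2 that did not pass.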

How the data were processed

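Per the labels' protocols, poly(A) RNA was captured on beads, made into libraries with the NEBNext Ultra RNA kit, which does not mark strand, and sequenced as read pairs. The submitters' processing notes name RSEM, Bowtie2, Trimmomatic 0.36 and FastQC, and the series title gives a de novo assembly. Which assembler, clustering tool, annotation versions and differential test were used is not given in the sources. Per the file headers, each cluster has deposited read counts, which are expected counts of the RSEM kind (45.4% of values are not exactly whole). Also deposited by the authors are FPKM, a cluster length with the best protein hits, their E-values and an alignment score, and a log2 ratio with its q-value.

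Libraries were grouped by the sucrose content in the labels. Expected counts were rounded, clusters of low counts were removed with filterByExpr (99.29% of counts kept), and the media were compared in edgeR 4.0.16 under R 4.3.3 by quasi-likelihood, with TMM factors, no covariate and Benjamini-Hochberg adjustment over all 85038 clusters at 0.05. The common biological coefficient of variation was 41.4%. Totals were 36357450, 41147265 and 38023294 counts at 3% sucrose and 36919130, 35476032 and 36337686 at 8% sucrose. The level of 3 counts, the limit a count of 0 allows, was 0.0776 to 0.0883 CPM and covers counting error only. No library repeats another within counting noise (chi-square per cluster 8.05 to 15.2 between replicates), so none was merged; this does not show separate cultures. Sums per Swiss-Prot protein used the library sizes of the cluster fit. FPKM were used to compare levels between clusters and, as log2(FPKM + 0.5) in limma 3.58.1, as an alternative, and DESeq2 1.42.0 was another. Figures were drawn with matplotlib 3.10.9. The test was also run on simulated data with less spread between libraries and far fewer changed clusters than here. That run therefore does not measure its error rate on these data.

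The members, the neighbouring gene lists and the tests were chosen with earlier results of these data known. Clusters with a mean of at least 100 counts, the cluster of smallest adjusted p in each direction per step, and the same per neighbouring list were named. Other clusters were named after their values were seen.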

Additional observations from a re-analysis of the deposited data

How the results depend on the processing

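With 21 clusters called higher and 5 lower as reported, leaving out 1 library gave 19 to 21 higher and 4 to 6 lower. Of the proteins, 10 higher and 5 lower as reported, it gave 10 to 11 higher and 5 to 6 lower. Only the clusters with an E-value of at most 1e-50 gave 11 higher. A test against a 2-fold change gave 3 lower, and the clusters with an NR hit named for the same step 2 lower; both alternatives hold fewer clusters or ask for a larger change by construction. Without the most abundant cluster of each protein 6 proteins were higher and 1 lower. The sum of the dihydroflavonol reductase step, whose log2 ratio without any 1 library was -1.78 to -1.71, became 2.60 without Cluster-2051.99328, and that of all late steps went from -1.42 to 2.61 without it. Both remainders still hold Cluster-2051.84424, which has the same NR name and KEGG term as the cluster left out. The remainder of all late steps also holds Cluster-2051.64068, whose protein match is weak. Of 259 alternative values of named clusters 247 kept their direction and side of the threshold and none reversed. The 12 that missed the threshold belong to Cluster-2051.125767 and Cluster-2051.84424. Besides the left-out libraries, Cluster-2051.125767 missed it with limma on FPKM (log2 difference -0.36, adjusted p = 0.0864), with library totals alone (-0.41, adjusted p = 0.101) and without the filter (adjusted p = 0.0553). The library totals for clusters, the TMM factors over proteins and the alternatives for the late steps were chosen after seeing the data. The median of all tested clusters was 0.14 with RLE size factors and 0.35 with library totals alone. Same-numbered libraries of the media did not deviate together over all clusters (correlations 0.0245, 0.00334 and 0.00917). Deviations from means of 3 libraries cannot settle whether the numbers pair the samples, and the labels do not say. With the replicate block 19 clusters were higher and 4 lower, and the adjusted p was 0.0713 for Cluster-2051.125767 and 0.0603 for Cluster-2051.84424. The count of 3 libraries per medium limits every exact permutation test to p = 0.1, and 13 of the 40 clusters were too rare for a test.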

Other observations

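Some clusters have an NR hit named for a flavonoid enzyme but a Swiss-Prot hit with another name, so they are not among the 40. They were chosen after earlier results were seen and are given as values. The abundant one is Cluster-2051.22671, with a Swiss-Prot hit to stilbene synthase 2, a relative of chalcone synthase that starts from the same substrates, and an NR hit to a chalcone synthase 2-like protein of beet. This cluster also holds KEGG's chalcone synthase term, the only 1 outside the 40 to do so. It was at 39.1, 31.4 and 34.03 CPM at 3% sucrose and at 13.2, 11.95 and 13.5 CPM at 8% sucrose. The media did not overlap, and its log2 fold change was -1.44 ± 0.11 (edgeR adjusted p = 5.88e-05), against a rise of 1.52 to 3.67 in the 3 abundant chalcone synthase clusters. Cluster-26040.0, with a Swiss-Prot hit to the type III polyketide synthase B of *Arabidopsis*, had no count at 3% sucrose and was at 0.595, 0.711 and 0.569 CPM at 8% sucrose.

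Of 23 clusters whose NR hit is named flavonol synthase or flavanone 3-hydroxylase but whose Swiss-Prot hit is another oxygenase or none, 16 were tested. Of these 4 were higher, 3 were lower and 9 did not pass, with a median log2 fold change of -0.01. The shares over all tested clusters were 29.1% higher and 25.6% lower. The summed means of the 23 clusters were 51.7 CPM at 3% sucrose and 48.8 CPM at 8% sucrose. The 3 outside clusters with an NR hit named anthocyanidin reductase were all higher, with summed means of 2.12 and 7.75 CPM. Their NR matches are weak (E-values 1.0e-07 to 1.3e-07) and they have no Swiss-Prot hit. The 3 with an NR hit named dihydroflavonol reductase had summed means of 1.14 and 3.62 CPM, and both that were tested were higher.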
